A study of Mus musculus with 5 samples.

Results

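The genes described here are 10 genes of MHC class I antigen presentation in HT22 cells, namely *H2-D1*, *H2-K1*, *H2-T23*, *Tap1*, *Tap2*, *Tapbp*, *Psmb8*, *Psmb9*, *Psmb10* and *Nlrc5*. They were chosen by name as a functional group, and each was found once, by Ensembl identifier and GRCm38 symbol, among the 55487 genes of the deposited count table. All 10 passed the filter on low counts, as did 15867 genes in 4 libraries and 16142 genes in 5.

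HT22 is a mouse line derived from hippocampus. Libraries of poly(A) RNA were made 48 h after transfection with siRNA at 10 nM, to ask which genes respond to knockdown (KD) of the long non-coding RNA GAS5. The 5 libraries comprised 1 of GAS5 siRNA210, 2 of GAS5 siRNA596 and 2 of negative control siRNA (NC). The NC samples carry the label untreated, whereas their titles and the protocol give NC siRNA, so all 5 cultures are taken to have received siRNA and transfection reagent, and no library of untransfected cells was analysed here. Nothing in the labels says that libraries came from separate cultures, so the P-values measure only the spread between these libraries, which may be technical.

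Total counts ran from 30660265 to 36492134 per library. The library labelled siRNA596 replicate 2 stood apart from the other 4, since it differed more than 2-fold from their mean in 39.1% of the genes tested and its difference fell with transcript length (Spearman's rho -0.45 across 16119 genes, which share the 5 libraries and are not independent replicates). *Gas5* itself was at 90.3 and 76.0 CPM (counts scaled to library size) in NC replicates 1 and 2, at 59.6 with siRNA210 and at 65.8 in siRNA596 replicate 1, but at 179 in the library labelled siRNA596 replicate 2, which goes against the label. The authors' mean counts matched this table to within 0.0977% only without that library. KD against NC is therefore given first for the other 4 libraries and then for all 5. Of 10 neuronal marker genes, 4 (*Rbfox3*, *Nefl*, *Nefm* and *Snap25*) stayed at 2 counts or fewer in every library and *Syt1* and *Grin1* at 6 or fewer, while *Tubb3* had 497 to 970 counts and *Map2* 833 to 3336. The remaining neuronal markers, *Slc17a7* and *Camk2a*, had 44 to 133 and 34 to 52 counts. *Col1a1*, a fibroblast collagen, reached 78569 to 157995 counts, whereas *Dcn* of the same marker list had 0 to 28. The progenitor filament gene *Vim* reached 97781 to 115117 counts, whereas the progenitor marker *Sox2* had 0 in every library. The other fibroblast markers, *Col3a1* and *Pdgfra*, had 3148 to 9156 and 411 to 1601 counts. The other progenitor markers, *Nes* and *Pax6*, had 12449 to 18195 and 944 to 1894. In these lists only *Dcn* and *Sox2* were thus at or near 0.

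MHC class I molecules display peptides from the cell's own proteins to CD8 T cells. Proteasomes cut the proteins, and the immunoproteasome carries the exchanged catalytic subunits encoded by *Psmb8*, *Psmb9* and *Psmb10*. The TAP1 and TAP2 transporter moves the peptides into the endoplasmic reticulum, where tapasin (*Tapbp*) holds TAP beside the heavy chains and their light chain, beta-2 microglobulin, during loading. NLRC5 is a transactivator of class I genes, and interferon signalling raises most of these genes in many cell types. Resting neurons are known for low class I levels.

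Of the 10 genes, 8 lie in the major histocompatibility complex on chromosome 17 of GRCm38, from *Tapbp* (chr17:33915899-33929292, plus strand) to *H2-T23* (chr17:36029773-36032855, minus strand). *Psmb9* (chr17:34181987-34187764, minus strand), *Tap1* (chr17:34187553-34197225, plus strand), *Psmb8* (chr17:34197721-34201454, plus strand) and *Tap2* (chr17:34203527-34216321, plus strand) stand side by side. *Psmb10* (chr8:105935735-105938444, minus strand) and *Nlrc5* (chr8:94434356-94527272, plus strand) lie on chromosome 8.

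Promoter sequences were matched by symbol to the RefSeq table for GRCm38.p6, which holds 8 of the 10 genes, with no entry used for *Tap2* and *Nlrc5*. The 250 bases before the start of *H2-K1* (chr17:34000348-34000597, minus strand), of *H2-D1* (chr17:35262844-35263093, plus strand) and of *Psmb8* (chr17:34197945-34198194, plus strand) are shown because these 3 genes were lowest in NC replicate 2 and highest in siRNA596 replicate 2. *H2-T23* (chr17:36032702-36032951, minus strand) is shown as the heavy chain gene that was not highest there, and the 225 bases between the starts of *Tap1* and *Psmb9* (chr17:34187331-34187555, read on the *Tap1* strand) because both genes face them. Capitals mark matches, on either strand, to the NF-kB consensus, the interferon response type GAANNGAAA, the gamma-activated type TTCNNNGAA, TGACG (core of the X2 box) and CCAAT (core of the Y box).
H2-K1: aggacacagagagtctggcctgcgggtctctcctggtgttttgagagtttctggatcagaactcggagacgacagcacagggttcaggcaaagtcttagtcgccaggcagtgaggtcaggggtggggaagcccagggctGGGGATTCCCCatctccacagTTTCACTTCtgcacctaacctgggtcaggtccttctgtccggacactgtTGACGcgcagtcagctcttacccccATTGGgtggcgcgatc
H2-D1: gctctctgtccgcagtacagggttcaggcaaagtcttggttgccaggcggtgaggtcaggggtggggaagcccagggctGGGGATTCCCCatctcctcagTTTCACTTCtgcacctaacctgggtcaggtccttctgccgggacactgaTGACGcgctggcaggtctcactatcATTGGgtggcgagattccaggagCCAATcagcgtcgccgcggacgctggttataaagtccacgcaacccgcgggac
Psmb8: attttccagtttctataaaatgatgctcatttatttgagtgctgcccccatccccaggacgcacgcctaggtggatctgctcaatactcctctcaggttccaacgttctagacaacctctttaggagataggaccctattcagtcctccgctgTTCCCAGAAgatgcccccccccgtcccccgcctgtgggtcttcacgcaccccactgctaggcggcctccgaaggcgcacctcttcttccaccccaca
H2-T23: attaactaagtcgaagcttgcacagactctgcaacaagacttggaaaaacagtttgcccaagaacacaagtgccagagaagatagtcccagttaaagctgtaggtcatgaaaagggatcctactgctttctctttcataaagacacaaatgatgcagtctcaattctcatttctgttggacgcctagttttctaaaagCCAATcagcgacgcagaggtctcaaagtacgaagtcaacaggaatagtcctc
Tap1 to Psmb9: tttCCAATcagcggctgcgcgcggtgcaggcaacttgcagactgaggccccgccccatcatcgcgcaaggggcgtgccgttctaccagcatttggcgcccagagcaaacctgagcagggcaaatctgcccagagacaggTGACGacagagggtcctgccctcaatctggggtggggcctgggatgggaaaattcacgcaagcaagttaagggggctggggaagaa

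The windows of *H2-K1* and *H2-D1* align over 190 bases with 87.4% identity. Both hold the NF-kB consensus as a pair of overlapping matches that read on both strands, then the interferon response type, TGACG and CCAAT, with first bases 21, 49 and 25 bases apart in either gene. The first CCAAT match begins at -16 from the RefSeq start used for *H2-K1* and at -76 from that of *H2-D1*. *Psmb8* holds TTCNNNGAA and none of the other motifs. *H2-T23* holds CCAAT alone among the motifs searched, and the *Tap1* to *Psmb9* stretch holds CCAAT and TGACG. Among the first 250 bases of all 32851 promoters of the table, 7.25% hold the NF-kB consensus, 6.31% GAANNGAAA, 17.8% TGACG, 33.8% CCAAT and 7.02% TTCNNNGAA. Of the 8 matched genes, 2 hold the NF-kB consensus and the same 2 GAANNGAAA, 4 hold TGACG, 6 hold CCAAT and 1, *Psmb8*, holds TTCNNNGAA. *Psmb10*, also highest in siRNA596 replicate 2 (log2 2.06 above the other 4), holds none of these motifs. The window of *B2m*, the light chain gene, holds the NF-kB consensus, TGACG and CCAAT. All these are matches of letters and say nothing of binding in HT22 cells. A link between motifs and levels was not tested.

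The whole pathway was expressed in control cells, from heavy chains to the transactivator. Levels between genes are compared as CPM per kilobase of the principal transcript, as the mean of the NC libraries with its SD (n = 2). *H2-D1* led with 126 ± 16.4, followed by *H2-K1* with 91.2 ± 16.3 and *Tapbp* with 81.3 ± 15.7. *Psmb10* stood at 26.5 ± 9.27, *H2-T23* at 15.5 ± 4.17, *Tap1* at 9.67 ± 0.547, *Tap2* at 9.48 ± 0.128 and *Psmb8* at 9.44 ± 3.21. *Psmb9* was at 3.85 ± 0.762 and *Nlrc5*, the lowest, at 0.782 ± 0.363. The ranges of the NC libraries overlapped between *H2-K1* and *Tapbp*, between *Tap1* and *Tap2* and between *Tap2* and *Psmb8*, so these neighbours cannot be ordered. With the length of all annotated exons instead, *Tapbp* came before *H2-K1*, and *Tap2* before *H2-T23* and *Tap1*.

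**Figure D1:**
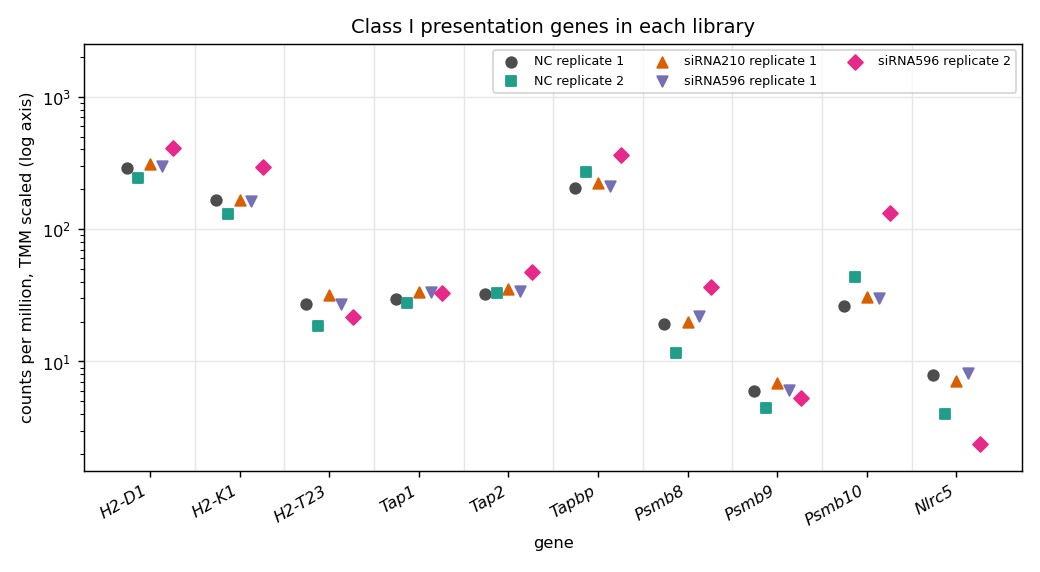
CPM (TMM scaled, log axis) of the 10 genes, 1 point per library. The heavy chain genes *H2-D1* and *H2-K1* and *Tapbp* lie above 100 CPM, *Psmb9* and *Nlrc5* lie below 10 CPM in every library, and siRNA596 replicate 2 stands highest for *Psmb10*, at 133 CPM.

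None of the 10 genes had an adjusted P under 0.05 between KD and NC, in 4 libraries or in all 5. In the 4 libraries edgeR gave adjusted P-values of 0.967 to 0.974, and 0 of the 10 had an adjusted P under 0.05, as against 0% of all genes tested. By the criteria of the study, an unadjusted P under 0.05 and a change of more than 2-fold, 0 of the 10 were called, beside 0.876% of all genes. An unadjusted P under 0.05 was reached by 0 of the 10 with edgeR, beside 3.3% of all genes, and by *H2-T23* and *Psmb8* with the Wald test of DESeq2, beside 2.32%. With no filter on low counts *H2-D1*, *H2-T23* and *Psmb8* reached it with edgeR, beside 3.44%. The adjusted P-values were 1 with DESeq2 and 0.921 with no filter. The fold changes were small, with log2 values from -0.21 for *Psmb10* to 0.45 for *Psmb8*. Of the 10 genes, 8 had values above 0, beside 49.5% of all genes, and their median was 0.21, beside -0.0023 over all genes tested. With DESeq2 size factors 8 were above 0, beside 49.5%, and with library size alone 8, beside 45.1%. In the fit of all 5 libraries 10 were above 0, beside 51%, with *Nlrc5* at only 0.003 (SE 0.598). *Tapbp* and *Psmb10* were above 0 there but below it in the 4 libraries.

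*H2-D1* encodes a classical heavy chain, the chain that holds the peptide. It had 289.7 and 241 CPM in NC replicates 1 and 2, 312 with siRNA210, 298 in siRNA596 replicate 1 and 408 in siRNA596 replicate 2. All 3 KD libraries lay above both NC libraries, NC replicate 2 was lowest and siRNA596 replicate 2 highest. The log2 fold change of KD against NC was 0.20 (SE 0.099, edgeR adjusted P = 0.967) in 4 libraries and 0.35 (SE 0.252, adjusted P = 0.963) in 5.

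*H2-K1*, the other classical heavy chain of this set, was also lowest in NC replicate 2 and highest in siRNA596 replicate 2, at a lower level. Its values were 166 and 129 CPM in the NC libraries, 166 with siRNA210, 164 in siRNA596 replicate 1 and 293 in siRNA596 replicate 2. NC replicate 1, siRNA210 and siRNA596 replicate 1 were nearly level, so KD and NC overlapped, while NC replicate 2 was lower and siRNA596 replicate 2 higher. Per kilobase *H2-K1* was at 74.5% and 69.5% of *H2-D1* in the NC libraries, 69.2% and 71.2% in siRNA210 and siRNA596 replicate 1, and 93.0% in siRNA596 replicate 2. KD against NC was at a log2 fold change of 0.16 (SE 0.114) in 4 libraries and 0.49 (SE 0.344) in 5.

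*H2-T23* encodes the non-classical heavy chain Qa-1, a ligand of the NKG2A receptor of natural killer cells. It had 27.1 and 18.4 CPM in the NC libraries, 31.9 with siRNA210, 27.4 in siRNA596 replicate 1 and 21.8 in siRNA596 replicate 2. NC replicate 2 was again the lowest, but siRNA596 replicate 2 was now next to it instead of at the top. Per kilobase it was at 13.4% and 10.9% of *H2-D1* in the NC libraries and at 7.62% in siRNA596 replicate 2. The log2 fold change of KD against NC was 0.38 (SE 0.177) in 4 libraries and 0.25 (SE 0.287) in 5.

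*Tap1* and *Tap2*, the partner subunits of the peptide transporter, varied least. *Tap1* had 29.7 and 27.4 CPM in the NC libraries, 33.7 with siRNA210, 33.3 in siRNA596 replicate 1 and 32.7 in siRNA596 replicate 2. The 3 KD libraries lay above both NC libraries and the log2 fold change was 0.23 (SE 0.108) in 4 libraries and 0.22 (SE 0.196) in 5. *Tap2* had 32.3 and 33.0 CPM in the NC libraries, 35.5, 33.97 and 47.5 in siRNA210 and siRNA596 replicates 1 and 2. Its groups did not overlap either, with a log2 fold change of 0.09 (SE 0.103) in 4 libraries and 0.26 (SE 0.24) in 5. Per kilobase *Tap2* stood at 87.5% to 103% of *Tap1* in the 4 libraries and at 125% in siRNA596 replicate 2.

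*Tapbp*, tapasin, ran against the heavy chains in the control libraries. It had 203 CPM in NC replicate 1 and 268 in NC replicate 2, 222 with siRNA210, 212 in siRNA596 replicate 1 and 363 in siRNA596 replicate 2. Both KD libraries of the 4 fell between the NC libraries. The log2 fold change was -0.12 (SE 0.122) in 4 libraries and 0.17 (SE 0.325) in 5, so its sign turned with the added library.

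The immunoproteasome subunits parted from one another. *Psmb8*, the chymotrypsin-like subunit beta5i, had 19.1 and 11.7 CPM in the NC libraries, 19.8 with siRNA210, 22.1 in siRNA596 replicate 1 and 36.7 in siRNA596 replicate 2. *Psmb9*, beta1i, had 5.94 and 4.48 CPM in the NC libraries, 6.90 with siRNA210, 6.09 in siRNA596 replicate 1 and 5.26 in siRNA596 replicate 2. *Psmb10*, beta2i, had 26.2 and 43.4 CPM in the NC libraries, 30.4 with siRNA210, 29.9 in siRNA596 replicate 1 and 133 in siRNA596 replicate 2. NC replicate 2 was thus the lowest library for *Psmb8* and *Psmb9* and the higher NC library for *Psmb10*, and siRNA596 replicate 2 was far above the rest for *Psmb10*, above them for *Psmb8* and between the NC libraries for *Psmb9*. The log2 fold change in 4 libraries was 0.45 (SE 0.208) for *Psmb8*, 0.32 (SE 0.22) for *Psmb9* and -0.21 (SE 0.199) for *Psmb10*. In 5 libraries it was 0.77 (SE 0.385), 0.22 (SE 0.296) and 0.89 (SE 0.757).

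Each immunoproteasome subunit takes the place of a constitutive one, and per kilobase of principal transcript all 3 were below their counterparts. *Psmb8* was at 17.2% and 10.8% of *Psmb5* in the NC libraries, 17.8% with siRNA210, 22.7% in siRNA596 replicate 1 and 9.002% in siRNA596 replicate 2. *Psmb9* was at 1.92% and 1.44% of *Psmb6* in the NC libraries, 2.22% with siRNA210, 2.04% in siRNA596 replicate 1 and 0.526% in siRNA596 replicate 2. *Psmb10* was at 22.99% and 34.5% of *Psmb7* in the NC libraries, 25.3% with siRNA210, 27.1% in siRNA596 replicate 1 and 67.1% in siRNA596 replicate 2. On the length of all exons the last percentages were 52.1, 78.3, 57.4, 61.5 and 152, so that *Psmb10* passed *Psmb7* in that library on this scale only. In siRNA596 replicate 2 *Psmb5* was at 225 CPM and *Psmb6* at 590, against 53.7 to 61.2 and 176 to 183 in the other 4. In that library *Psmb8* and *Psmb9* stood lower against their counterparts than in the other 4, and *Psmb10* higher.

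**Figure D2:**
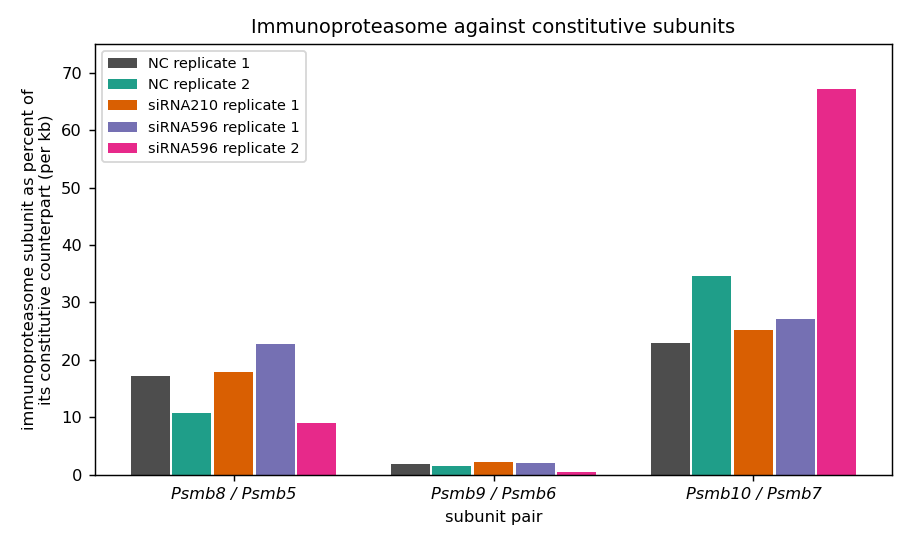
Level of each immunoproteasome subunit as a percentage of its constitutive counterpart, both per kilobase of principal transcript, 1 bar per library. *Psmb9* stays under 3% of *Psmb6* in every library, and *Psmb10* reaches 67.1% of *Psmb7* in siRNA596 replicate 2 against 22.99% to 34.5% in the other 4.

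*Nlrc5* had the fewest counts per kilobase, with 277 and 153 counts in the NC libraries, 256 with siRNA210, 295 in siRNA596 replicate 1 and 63 in siRNA596 replicate 2. As CPM these were 7.87 and 3.99, 7.15, 8.24 and 2.39. The library labelled siRNA596 replicate 2 was lowest, with a 95% Poisson interval of 1.83 to 3.05 CPM that covers counting error only, and NC replicate 2 was next. KD against NC was at a log2 fold change of 0.38 (SE 0.293) in 4 libraries and 0.00 (SE 0.598) in 5. *Nlrc5* was thus lowest in the library in which *H2-K1* and *H2-D1* were highest.

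**Figure D3:**
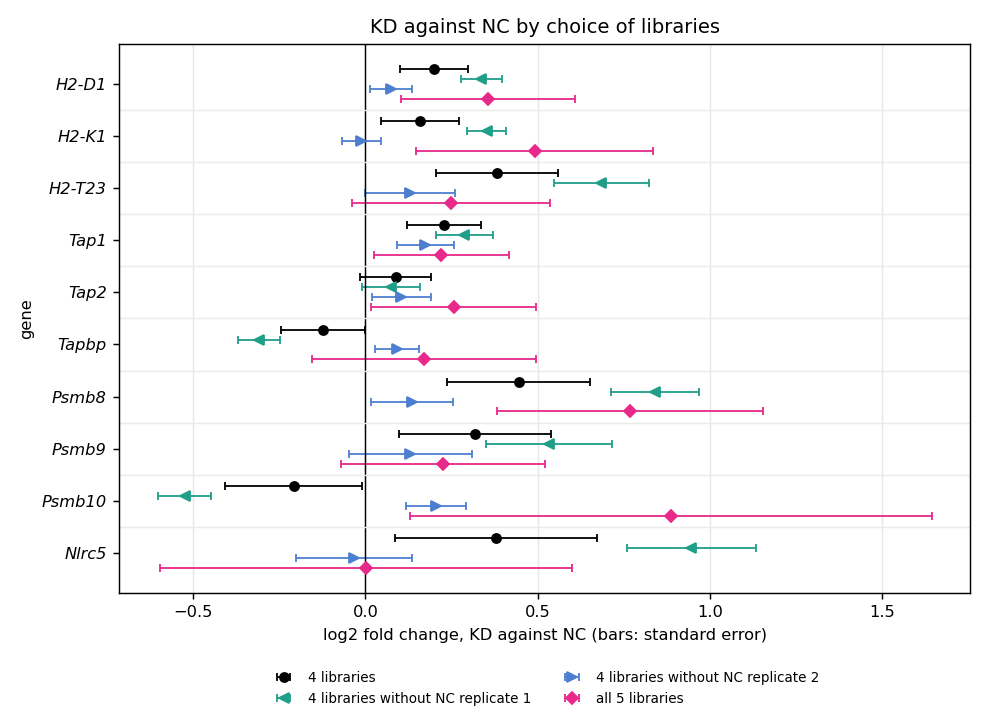
Log2 fold change of KD against NC with its standard error from edgeR for the 10 genes, with the 4 libraries, with either NC library left out of them and with all 5 libraries. Without NC replicate 2 the values lie between -0.03 and 0.21, and without NC replicate 1 between -0.53 and 0.95.

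Of the 10 genes, 6 (*H2-D1*, *H2-T23*, *Tap1*, *Tap2*, *Psmb8* and *Psmb9*) had both KD libraries above both NC libraries, beside 16.7% of all genes tested, and 0 had both below, beside 16.2%. For each of the 6 the Poisson interval of the lower KD library overlapped that of the higher NC library. For *Psmb9* they were 5.308 to 6.953 CPM in siRNA596 replicate 1 and 5.16 to 6.8 in NC replicate 1. For *Tap1* the overlap was narrow, with 31.43 to 35.24 and 27.92 to 31.55 in the same libraries. The count therefore does not by itself show margins beyond counting error. With all 5 libraries 4 genes (*H2-D1*, *Tap1*, *Tap2* and *Psmb8*) had every KD library above both NC libraries, beside 8.3% of all genes. The intervals of the lowest KD and the higher NC library overlapped for these 4 as well. NC replicate 2 was the lowest or highest of the 4 libraries for 9 of the 10 genes (all but *Tap2*), beside 66.9% of all genes, lowest for 7 and highest for *Tapbp* and *Psmb10*. The difference between KD and NC was smaller than the gap between the NC libraries for 8 of the 10, all but *Tap1* and *Tap2*, beside 67.7% of all genes.

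The gap between the NC libraries was wide for these genes. Its absolute log2 value had a median of 0.40 over the 10 genes and 0.20 over all genes tested, whereas siRNA210 and siRNA596 replicate 1 differed by a median of 0.07 over the 10 and 0.12 over all. NC replicate 2 was below NC replicate 1 by log2 values of -0.98 for *Nlrc5*, -0.71 for *Psmb8*, -0.56 for *H2-T23*, -0.41 for *Psmb9*, -0.37 for *H2-K1* and -0.27 for *H2-D1*. It was above it by 0.73 for *Psmb10* and 0.40 for *Tapbp*. The exact 95% counting interval excluded 0 for these 8 genes, beside 52.5% of all genes tested, and included it for *Tap1* (-0.24 to 0.01) and *Tap2* (-0.09 to 0.14). The NC libraries were more than 1.5-fold apart for *Nlrc5*, *Psmb8* and *Psmb10*, 3 of the 10, beside 18% of all genes.

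The 4 genes that stand side by side did not share 1 gap. In order along the chromosome the log2 ratio of NC replicate 2 to NC replicate 1 was -0.41 for *Psmb9*, -0.12 for *Tap1*, -0.71 for *Psmb8* and 0.03 for *Tap2*. The counting interval of *Psmb9* (-0.71 to -0.11) overlapped that of *Tap1*, the gene across the printed stretch of promoter, so these ratios were not told apart at this depth.

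Fits against 1 NC library at a time take their spread from the 2 KD libraries, which were nearly level for these genes, and assume that the lone NC library varies alike. The log2 fold change of the 2 KD libraries of the 4 without NC replicate 2 was between -0.03 and 0.21, with a median of 0.12, and 0 of the 10 genes had an unadjusted P under 0.05, beside 2.52% of all genes. Against NC replicate 2 alone it was between -0.53 and 0.95, with a median of 0.35, and 9 of the 10 (all but *Tap2*) had an unadjusted P under 0.05, beside 16.5% of all genes, with adjusted P-values of 0.207 at the lowest. *H2-K1*, *Nlrc5*, *Tapbp* and *Psmb10* changed sign between these fits.

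**Figure D4:**
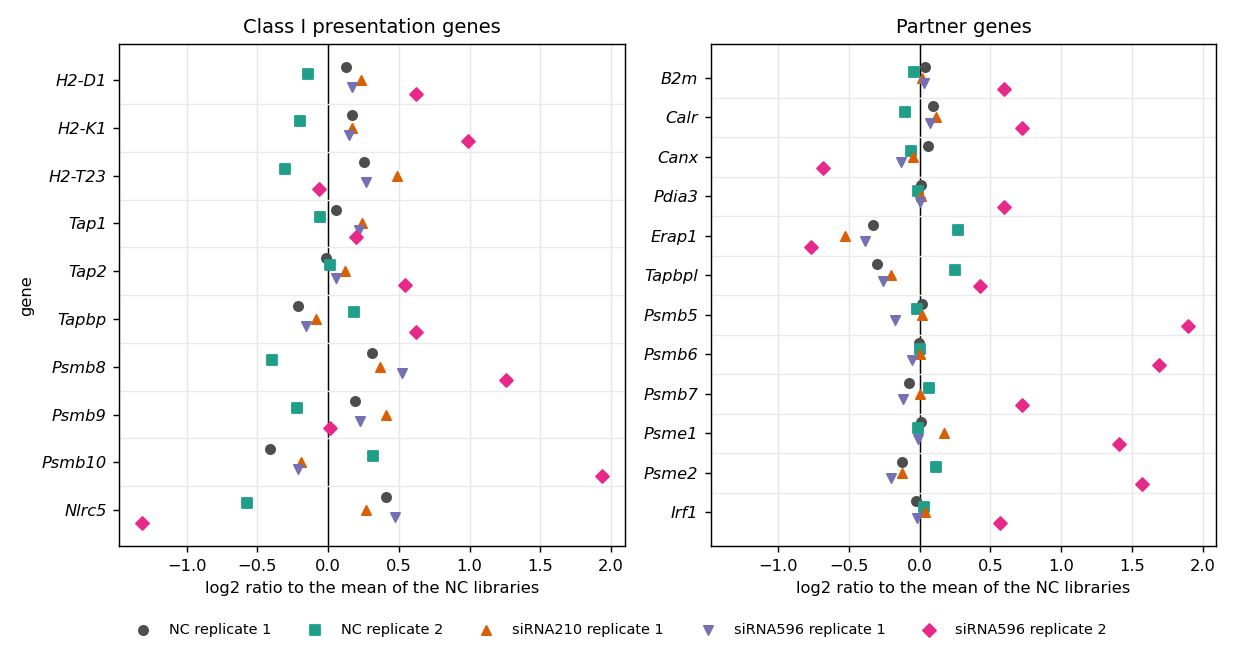
Log2 ratio of each library to the mean of the NC libraries, for the 10 genes and for 12 partner genes fixed by name. For most of the 10 genes NC replicate 2 and siRNA596 replicate 2 lie apart, while NC replicate 1, siRNA210 and siRNA596 replicate 1 lie close together.

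The library labelled siRNA596 replicate 2 was higher than both NC libraries for 7 of the 10 genes, beside 42% of all genes tested, and the highest of the 5 libraries for 6, beside 39.4%. Its log2 difference from the mean of the other 4 had a median of 0.51 over the 10 genes and -0.08 over all genes. It was more than 2-fold from that mean for *Psmb10*, *Psmb8* and *Nlrc5*, 3 of the 10, beside 39.1% of all genes. The differences were 2.06 for *Psmb10*, 1.06 for *Psmb8*, 0.91 for *H2-K1*, 0.69 for *Tapbp*, 0.53 for *H2-D1*, 0.50 for *Tap2*, 0.08 for *Tap1*, -0.14 for *Psmb9*, -0.24 for *H2-T23* and -1.45 for *Nlrc5*.

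*Nlrc5* has the longest principal transcript of the 10, at 7578 bases, and *Psmb10* the shortest, at 1311. The trend with transcript length and GC content fitted over all genes gave -0.86 for *Nlrc5* and 0.62 for *Psmb10*, which leaves -0.59 and 1.43. It gave 0.51 for *Psmb9* and 0.50 for *H2-T23*, which leaves -0.65 and -0.73. The remainders of the other 6 ran from 0.04 for *Tap1* to 0.69 for *Psmb8*. With offsets for this trend in the fit of all 5 libraries the 10 log2 fold changes were 0.06 to 0.59, with a median of 0.18 beside 0.07 over all genes, and the adjusted P-values were 0.994 to 0.996. The part of this trend in the differences was not tested further.

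**Figure D5:**
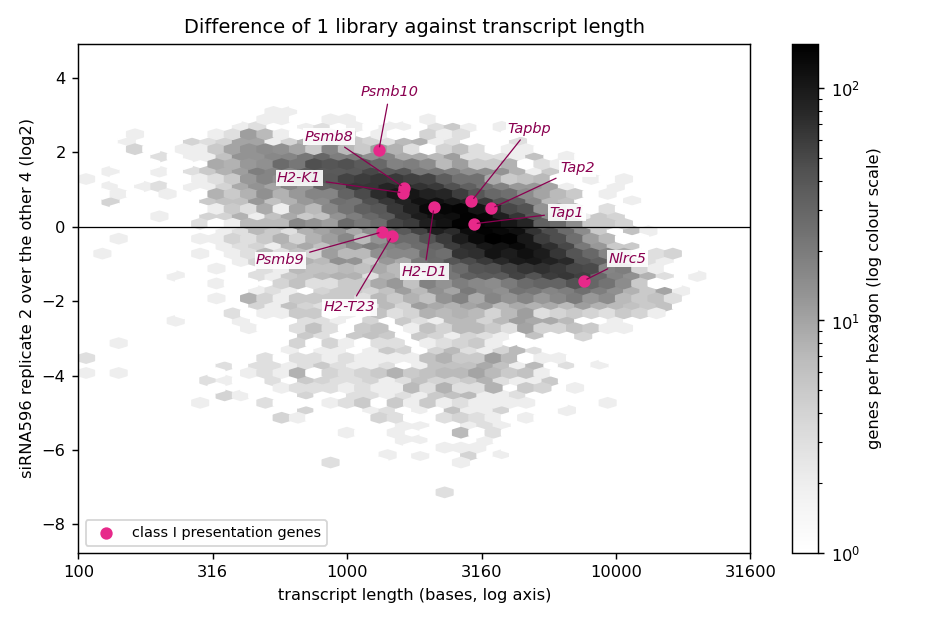
Log2 difference of siRNA596 replicate 2 from the mean of the other 4 libraries against transcript length (log axis), over all genes tested (grey hexagons) and for the 10 genes (points). The cloud falls from short to long transcripts, *Psmb10* lies at 2.06 and *Nlrc5* at -1.45.

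Between siRNA596 alone and NC, with 2 libraries each, 0 of the 10 genes passed the criteria of the study with edgeR, beside 0.259% of all genes. *Psmb10* passed them with DESeq2, beside 2.46% of all genes, and with edgeR without the filter, beside 2.89%. Without siRNA596 replicate 1 *Psmb8*, *Psmb10* and *Nlrc5* passed them, beside 32% of all genes. With edgeR 9 of the 10 log2 fold changes were above 0, beside 50% of all genes, and the adjusted P-values were 0.904 to 0.961. The siRNA210 library has no replicate. It differed from siRNA596 replicate 1 by log2 values between -0.22 (*H2-T23*, lower in siRNA596 replicate 1) and 0.20 (*Nlrc5*, higher there).

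The partners of these genes were expressed, and none had an adjusted P under 0.05 either. *B2m*, the light chain, was at 268 and 254 CPM in the NC libraries, 264 with siRNA210, 267 in siRNA596 replicate 1 and 394 in siRNA596 replicate 2, with a log2 fold change of 0.02 (SE 0.078) in 4 libraries. Its log2 ratio of NC replicate 2 to NC replicate 1 was -0.07, against -0.37 for *H2-K1* and -0.27 for *H2-D1*. Per kilobase *B2m* stood at 304 ± 11.1 in the NC libraries (SD, n = 2), above every heavy chain. The chaperones *Calr* (512 ± 49.8) and *Pdia3* (236 ± 3.04) were likewise above *H2-D1* per kilobase, and the range of *Canx* (135 ± 8.12) overlapped that of *H2-D1*.

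Of the 16 genes listed for the light chain, peptide loading and trimming, 0 had an adjusted P under 0.05 with edgeR or DESeq2, their median log2 fold change being 0.01. An unadjusted P under 0.05 was reached by 1 with either, beside 3.3% of all genes with edgeR and 2.32% with DESeq2. That gene with edgeR was *Erap1*, the aminopeptidase that trims peptides, at 23.7 and 36.0 CPM in the NC libraries, 20.8 with siRNA210, 22.9 in siRNA596 replicate 1 and 17.5 in siRNA596 replicate 2 (log2 fold change -0.46, SE 0.183). *Erap1* was higher in NC replicate 2, as was the tapasin-related *Tapbpl*, at 11.2 CPM in NC replicate 1 and 16.4 in NC replicate 2. In the direction of this gap both sided with *Tapbp* and *Psmb10*. In siRNA596 replicate 2 *Tapbpl*, at 18.5 CPM, was highest of the 5 libraries, as *Tapbp* and *Psmb10* were, but *Erap1* was lowest. Of the 8 constitutive catalytic subunits and proteasome activators, 0 passed with either tool, adjusted or unadjusted, and their median was -0.07. *Psme1* and *Psme2*, the interferon-responsive activator subunits, had log2 fold changes of 0.08 and -0.17.

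Of the other heavy chains and class I-like genes, 13 of 18 passed the filter. Of these, 9 had log2 fold changes above 0, beside 49.5% of all genes tested, and 4 below, with a median of 0.09. None had an adjusted P under 0.05 with edgeR or DESeq2. An unadjusted P under 0.05 was reached by 1 with either, beside 3.3% of all genes with edgeR and 2.32% with DESeq2. With edgeR it was *Mr1*, which presents vitamin B metabolites, at 22.9 and 16.4 CPM in the NC libraries, 25.7 with siRNA210, 25.5 in siRNA596 replicate 1 and 12.7 in siRNA596 replicate 2 (log2 fold change 0.38, SE 0.161).

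Of 24 signalling and transcription factor genes of this pathway, none had an adjusted P under 0.05 with either tool, and the median log2 fold change was 0.01. An unadjusted P under 0.05 was reached by 0 with edgeR, beside 3.3% of all genes, and by 1 with DESeq2, beside 2.32%. *Irf1*, an interferon-induced activator, was at 70.6 to 73.9 CPM in the 4 libraries. Of 9 interferon genes 8 had 0 counts in every library, which allows up to 3 counts in each, and *Ifne* had 0 to 6. *Psmb8*, *Psmb9* and *Tap1* are also interferon-stimulated genes, and with *Psmb10* the first 2 belong to the proteasome, with the values given above.

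Several genes of the cells that specialise in presentation were absent, and others were not. The class II chains *H2-Aa* and *H2-Ab1* had 0 counts in every library, and the class II invariant chain *Cd74* 118 to 214. *H2-DMb1* and *H2-DMa*, chains of the class II peptide editor, had 589 to 648 and 158 to 233 counts, and the 9 class II genes summed to 23.8 to 36.8 CPM. Of 6 lymphoid and dendritic markers 4, *Ptprc* among them, had 0 counts throughout, and the summed level of the list was 0.284 and 0.287 CPM in the NC libraries, 0.419 with siRNA210, 0.614 in siRNA596 replicate 1 and 0.189 in siRNA596 replicate 2. Of 6 microglia and macrophage markers *Itgam* was at 0 and *P2ry12* and *Cx3cr1* at 8 counts or fewer, and the list summed to 23.7 and 23.9 CPM in the NC libraries and to 25.9, 26.4 and 44.2 in the KD libraries, nearly all of it from *Tmem119* (796 to 1111 counts). In bulk RNA a change in the number of cells of a type and a change in RNA per cell cannot be told apart.

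The genes whose pattern came nearest to each member were found by the root mean square distance of log2 CPM, centred per gene, among 10535 genes of at least 5 CPM over the 4 libraries. *Irf9*, an interferon signalling factor, was nearest to *Psmb10* at a distance of 0.01, *Hsp90b1* to *H2-K1* at 0.003 and *Kif3a* to *H2-D1* at 0.004. *Irf9* had 23.5 and 38.4 CPM in the NC libraries, 27.3 with siRNA210 and 26.4 in siRNA596 replicate 1. Over all 5 libraries and 10574 genes the nearest to *Psmb10* was *Gm10076* at 0.054 and the nearest to *H2-D1* was *Grina* at 0.012, so neither gene kept its nearest gene between the searches. For the other 7 the nearest over 4 libraries were *Ftl1-ps1* (*H2-T23*), *Ephb2* (*Tap1*), *Phlda3* (*Tap2*), *Gm35019* (*Tapbp*), *Hmga1* (*Psmb8*), *Nyap1* (*Psmb9*) and *Fmo1* (*Nlrc5*), at 0.002 to 0.041. With 4 points a gene, many genes lie close to any pattern.

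Some reads of these genes could belong to others. *Psmb9* and *Tap1* share 212 exonic bases on opposite strands, 5.79% of *Psmb9* exons and 3.87% of those of *Tap1*. The antisense gene *Gm19412* overlaps 24.9% of *Tapbp* exonic bases, *Gm20496* 14.7% of those of *Psmb8* and *Gm15821* 14.1% of those of *Tap2*. Of the 50-base stretches of *H2-T23*, *H2-D1* and *H2-K1* transcripts, 14.5%, 12.8% and 9.63% also occur in another gene, the largest share in *H2-T-ps*, *H2-Q1* and *H2-Q10*, and at 100 bases 3.15%, 3.59% and 0.957% do. *Psmb10* shares none at either length. The strand setting and the treatment of reads with several matches are not given in the sources used here, so the counts of the genes with shared stretches are less certain than that of *Psmb10*.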

How the data were processed

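RNA-Seq counts of 5 HT22 libraries (siRNA210, 1; siRNA596, 2; NC, 2) were used. The authors deposited counts, which are whole reads per gene without normalization. Per the paper and the submitters' notes, they were made with Trimmomatic, HISAT2 2.1.0 on GRCm38, SAMtools 1.7 and featureCounts 2.0.1 on the Ensembl annotation. The strand setting is not given in the sources used here. The authors' deposited table of KD against NC (15412 genes) holds fold changes and P-values from DESeq2 1.26.0, which were not used. Only its mean of normalised counts, which the authors made with DESeq2 size factors, served to find which libraries entered it.

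Identifiers were matched to GENCODE symbols of GRCm38, which named 99.5% of 55487 genes. Counts were scaled with TMM, filtered with filterByExpr and tested with the quasi-likelihood F test of edgeR 4.0.16 in R 4.3.3, with Benjamini-Hochberg adjustment over all genes tested. CPM were scaled over the 5 libraries, and log2 ratios between libraries used 0.5 added counts. Transcript length was that of the APPRIS principal transcript, or of the longest one where none is marked (12712 of 16142 genes had one marked). The trend with length and GC content was fitted with mgcv. Motifs were searched in the 250 bases before each RefSeq start (GRCm38.p6). DESeq2 1.42.0, other scalings, no filter, robust fitting, all 5 libraries, offsets for length and GC content, each library left out in turn and a replicate block were the alternatives. Steps were tested on simulated data. Intervals cover counting error only, at depths of 30660265 to 36492134 counts. Figures were drawn with matplotlib 3.10.9.

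The members, lists and tests were chosen with earlier results of these data known. The genes named are the 10 members, *Gas5*, 12 partner genes, list genes past an unadjusted test or used as markers, and the gene nearest in pattern to each member. Genes that fall under this rule but are not named are not reported here. *H2-T24*, *Irf9*, *Tmem119*, *Col1a1* and the other marker genes given singly were named after their values were seen.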

Additional observations from a re-analysis of the deposited data

Results flagged for a closer look

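The library labelled siRNA596 replicate 2 is outside the comparison of 4 libraries, and 7 of the 10 genes were higher in it than in both NC libraries, beside 42% of all genes tested. Its log2 ratio to the NC mean was 1.93 for *Psmb10*, 1.256 for *Psmb8*, 0.99 for *H2-K1*, 0.62 for *H2-D1*, 0.62 for *Tapbp*, 0.54 for *Tap2* and 0.20 for *Tap1*. Set alone against the NC libraries and assumed to vary as they do, it gave adjusted P-values under 0.05 with edgeR for 7 genes, beside 49.4% of all genes. These were *H2-D1*, *H2-K1*, *Tap2*, *Tapbp*, *Psmb8* and *Psmb10*, which were higher, and *Nlrc5*, which was lower. It is 1 library, *Gas5* goes against its label, and its difference from the others falls with transcript length, so this compares libraries and not siRNAs.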

How the results depend on the processing

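Over 11 alternatives for each of the 10 genes, 102 of 110 log2 fold changes kept their direction, and no gene passed an adjusted P of 0.05 in any. Many of these are not separate checks. DESeq2, its size factors, no filter and robust fitting nearly repeated the main values (0.199 for *H2-D1* in each). Library size alone moved them little (0.181 for *H2-D1*). Such fits could hardly turn a direction. The 8 that turned direction were *Tapbp* at 0.171 with all 5 libraries, 0.074 with offsets for length and GC content as well and 0.092 without NC replicate 2, *Psmb10* at 0.887, 0.449 and 0.205 in the same fits, and, without NC replicate 2, *H2-K1* at -0.012 and *Nlrc5* at -0.032. As each library was left out, they spanned -0.308 to 0.092 for *Tapbp*, -0.525 to 0.205 for *Psmb10*, -0.012 to 0.352 for *H2-K1* and -0.032 to 0.946 for *Nlrc5*. The median of the 10 genes stayed above 0, at 0.12 to 0.35 as each library was left out.

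The count of all genes past the study criteria, 139, was 57 with all 5 libraries, 54 with offsets as well, 67 with DESeq2 and 282 with no filter, and 125 to 374 as each library was left out, highest without NC replicate 1. With an adjusted P under 0.05 it was 1 with DESeq2, and 0 to 1 as each library was left out. For siRNA596 against NC the 41 genes became 426 with the replicate block, 389 with DESeq2 and 770 with no filter, and 27 to 5369 as each library was left out, highest without siRNA596 replicate 1. Of the 10 genes, *Psmb10* was among the 389 and the 770, and *Psmb8*, *Psmb10* and *Nlrc5* among the 5369. The replicate numbers did not establish a pairing, as no label ties same-numbered libraries. Their deviations correlated with r = 0.126 over 16142 genes in 2 pairs. This value cannot decide on a pairing, since the siRNA596 deviations rest in part on replicate 2, which stood apart. The causes were not tested. The gap between the NC libraries exceeded counting error for 8 of the 10 genes, beside 52.5% of all genes.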

Other observations

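*H2-T24*, a class I heavy chain gene outside the 10, had counts of 193 and 188 under NC siRNA, 139 with siRNA210 and 169 in siRNA596 replicate 1, but 1 count in siRNA596 replicate 2. Of the related genes in the list, *H2-T10* was at 11.2 to 13.6 CPM in the 4 libraries and 25.5 in that library, and *H2-T22* at 40.1 to 43.8 and 59.5. *H2-T24* was singled out after its values were seen.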
